A study of Homo sapiens with 6 samples.

Results

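The amino acid transporter families described here are the carriers and heavy chains whose gene symbols begin with SLC1A, SLC3A, SLC7A, SLC36A, SLC38A or SLC43A followed by a number. They were taken by symbol from the deposited expression table, with the cystine carrier SLC7A11 left out. The rule found 39 genes among the 23346 in the table: 7 of SLC1, 2 of SLC3, 12 of SLC7, 4 of SLC36, 11 of SLC38 and 3 of SLC43. RNA was sequenced from the established line KhES-1 of human embryonic stem cells, kept either in AKIT medium (3 samples) or in the control medium Essential 8, called E8 (3 samples). AKIT is known as a medium that supports these cells through small-molecule inhibitors of GSK3, DYRK kinases and calcineurin, while E8 is a defined medium with FGF2 and TGF-beta. For both media the dishes bore a coat of laminin fragment (0.5 µg per square cm), and both groups come from the same line, without any genetic change named in the labels. Values of AKIT replicates 1, 2 and 3 and of E8 replicates 1 and 2 were used, while the third E8 sample was not analysed here. The amino acid content of the media is not given in the sources used here.

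Many amino acid carriers of the cell surface accumulate their substrates by coupling to sodium or protons. Some exchange an amino acid inside the cell for another outside, and others work by facilitated diffusion. The exchangers of the SLC7 light chain group work only as dimers with a heavy chain of the SLC3 family. In pluripotent stem cells glutamine is a main fuel and nitrogen source, and leucine and arginine, once inside the cell or its lysosomes, signal to the growth kinase complex mTORC1.

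The values are RPKM, reads scaled by gene length and by the depth of the library, which allow levels of different genes to be set side by side. They rested on 16242864 to 23263095 reads per library. Differences are those of mean log2(RPKM + 1), AKIT minus E8, a scale on which changes of low genes look smaller than they are, and the value after ± is the standard error. A gene "rose" or "fell" where limma gave a Benjamini-Hochberg adjusted p under 0.05, among 14776 genes whose mean reached 0.5 RPKM. After a mean, ± gives the SD (n = 3 in AKIT, n = 2 in E8). Whether replicates were separate cultures is not in the labels, and the p-values then cover only the spread among these samples, which may be technical.

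AKIT replicate 2 stood apart from the other AKIT libraries, at -27.3 on the second principal component (17.2% of the variance) where AKIT replicate 1 had 12.7, AKIT replicate 3 had 9.61 and the E8 libraries 2.91 and 2.13. The cells carried the markers of pluripotent cells in both media. The AKIT mean of POU5F1 was 349 ± 52.0 RPKM and its E8 mean 328 ± 21.0 RPKM, and those of NANOG were 10.5 ± 2.69 RPKM in AKIT and 8.15 ± 0.235 RPKM in E8. SOX2 fell, with means of 254 ± 45.3 RPKM in AKIT and 435 ± 21.8 RPKM in E8 (limma adjusted p = 0.0162). Summed over 8 pluripotency markers the level was 2552 to 2564 RPKM in AKIT and 2931 to 2938 in E8. Markers of other cell types had low sums, apart from a fibroblast list that was carried by THY1 (204 to 265 RPKM in AKIT, 345 and 347 in E8). The sums were 4.05 to 12 RPKM in AKIT and 2.35 and 3.22 in E8 for 5 mesoderm markers, and 5.76 to 10 in AKIT and 2.83 and 2.87 in E8 for 5 endoderm markers. For 6 neural markers they were 4.53 to 8.91 in AKIT and 6.33 and 7.05 in E8, and for 6 trophoblast markers 2.40 to 7.18 in AKIT and 6.74 and 6.98 in E8. Of the tested markers, 3 of 7 on the fibroblast list and 1 of 3 trophoblast markers fell, and 1 of 3 endoderm markers rose. No neural or mesoderm marker was called, and over all tested genes 20.0% were called. None of these markers was at 0 in all libraries, and their part in the results on transporters was not tested. In bulk RNA, fewer cells of a type and less RNA per cell cannot be told apart.

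Among the transporters, the cationic amino acid carrier SLC7A3, the glutamine and alanine carriers SLC38A2 and SLC38A4, the glutamate carrier SLC1A1 and the neutral carrier SLC43A2 fell in AKIT. SLC7A1 and SLC7A2 of the same cationic subfamily as SLC7A3, SLC38A1 of the same subfamily as SLC38A2, the lysosomal proteins SLC38A7 and SLC38A9, and SLC43A1 rose. Within SLC7, SLC38 and SLC43, members thus moved in opposite directions. Of the 39 members, 28 passed the filter on low values, 6 of them rose, 5 fell and 17 did not pass the test. Over all 14776 tested genes the share called was 20.0%, with 8.22% higher and 11.7% lower, against 39.3% of the tested members. Of all 39 members 28.2% were called, against 12.6% of all genes in the table. The groups did not overlap for 21 of the 28 tested members, with AKIT above E8 in 13 and below it in 8. Over all tested genes this held for 54.4%, with 25.8% above and 28.6% below. The median log2 difference was 0.11 over the tested members and -0.01 over all tested genes, and the median size of the difference, whatever its sign, was 0.28 and 0.24. The called members had at least 115 reads in every library.

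Differences were moderate, from -1.35 to 0.70 on the log2 scale, and only SLC1A1 and SLC7A3 differed by 1 or more. All 11 called members kept their direction under each of the 15 alternatives run, and SLC1A1 and SLC7A3 kept the call in all of them. The groups did not overlap for any of these 11 members. Leaving out a library or changing the filter could therefore not have reversed their direction. Leaving out an AKIT library ended the calls of 2 members for replicate 1, of none for replicate 2 and of 5 for replicate 3. The share called over all tested genes was then 13.9%, 32.2% and 12.2%, so passing without AKIT replicate 2 was common among genes at large. With a single E8 library, whichever was left out, the test called 0 members higher and 2 lower, against 2.69% of all genes called without E8 replicate 1 and 2.66% without E8 replicate 2.

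**Figure D1:**
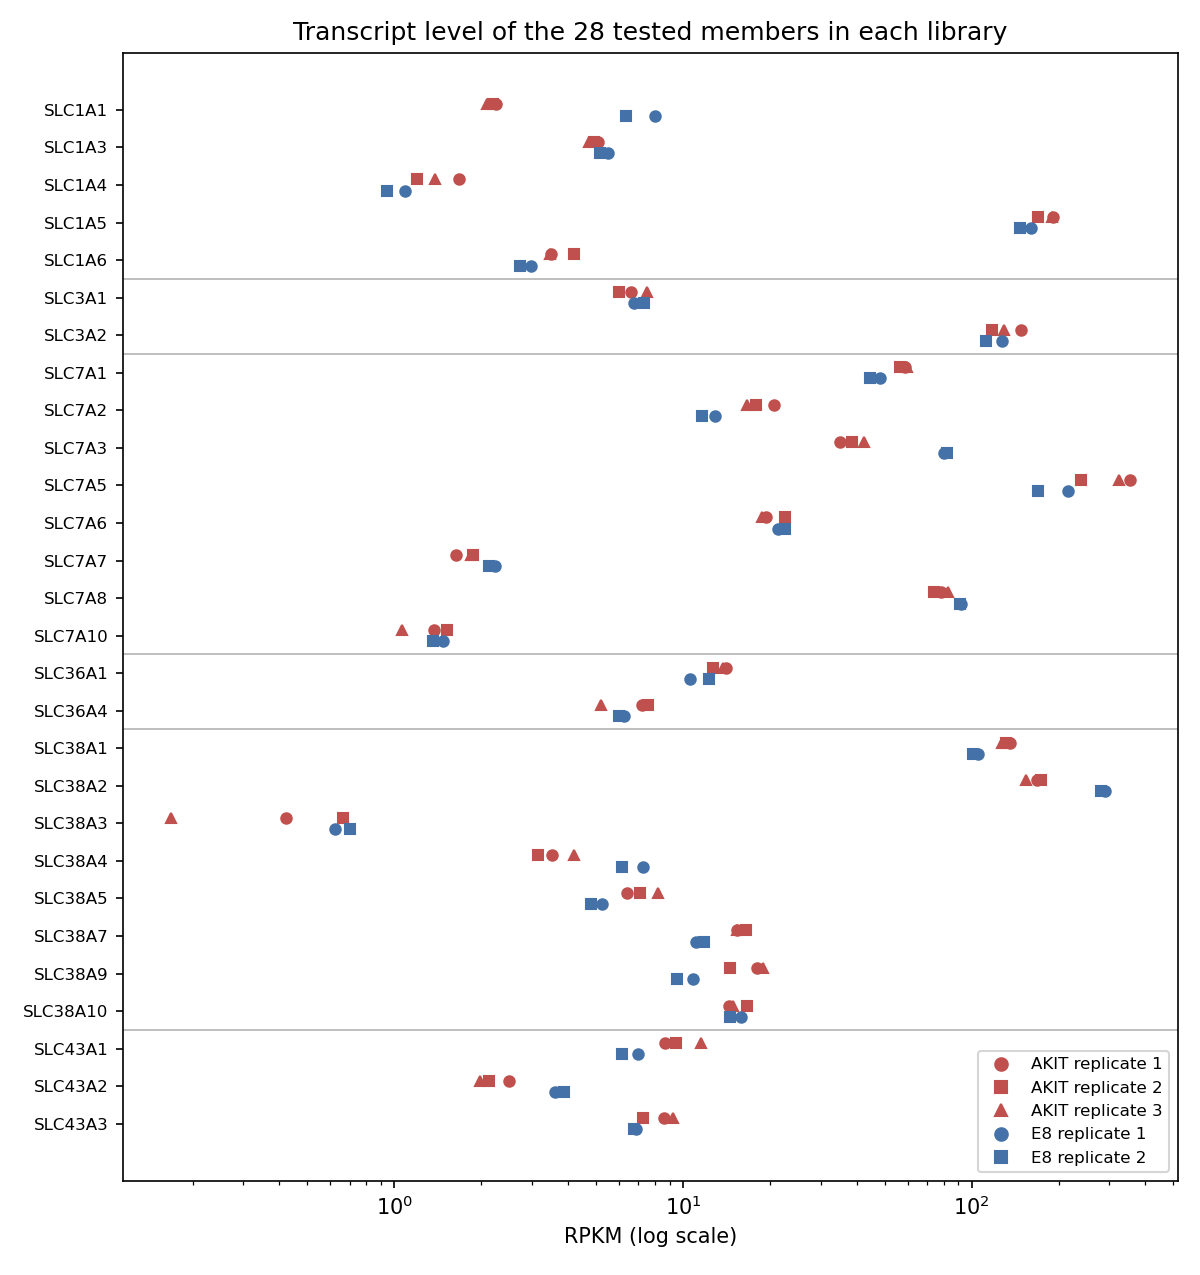
RPKM on a log axis for the 28 tested members in every library, ordered by family, with AKIT in red, drawn above E8 in blue for each gene, and replicates by the shape of the point. Levels span from under 1 RPKM for SLC38A3 to 352 RPKM for SLC7A5 in AKIT replicate 1, and the libraries of a medium lie close together for most members.

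**Figure D2:**
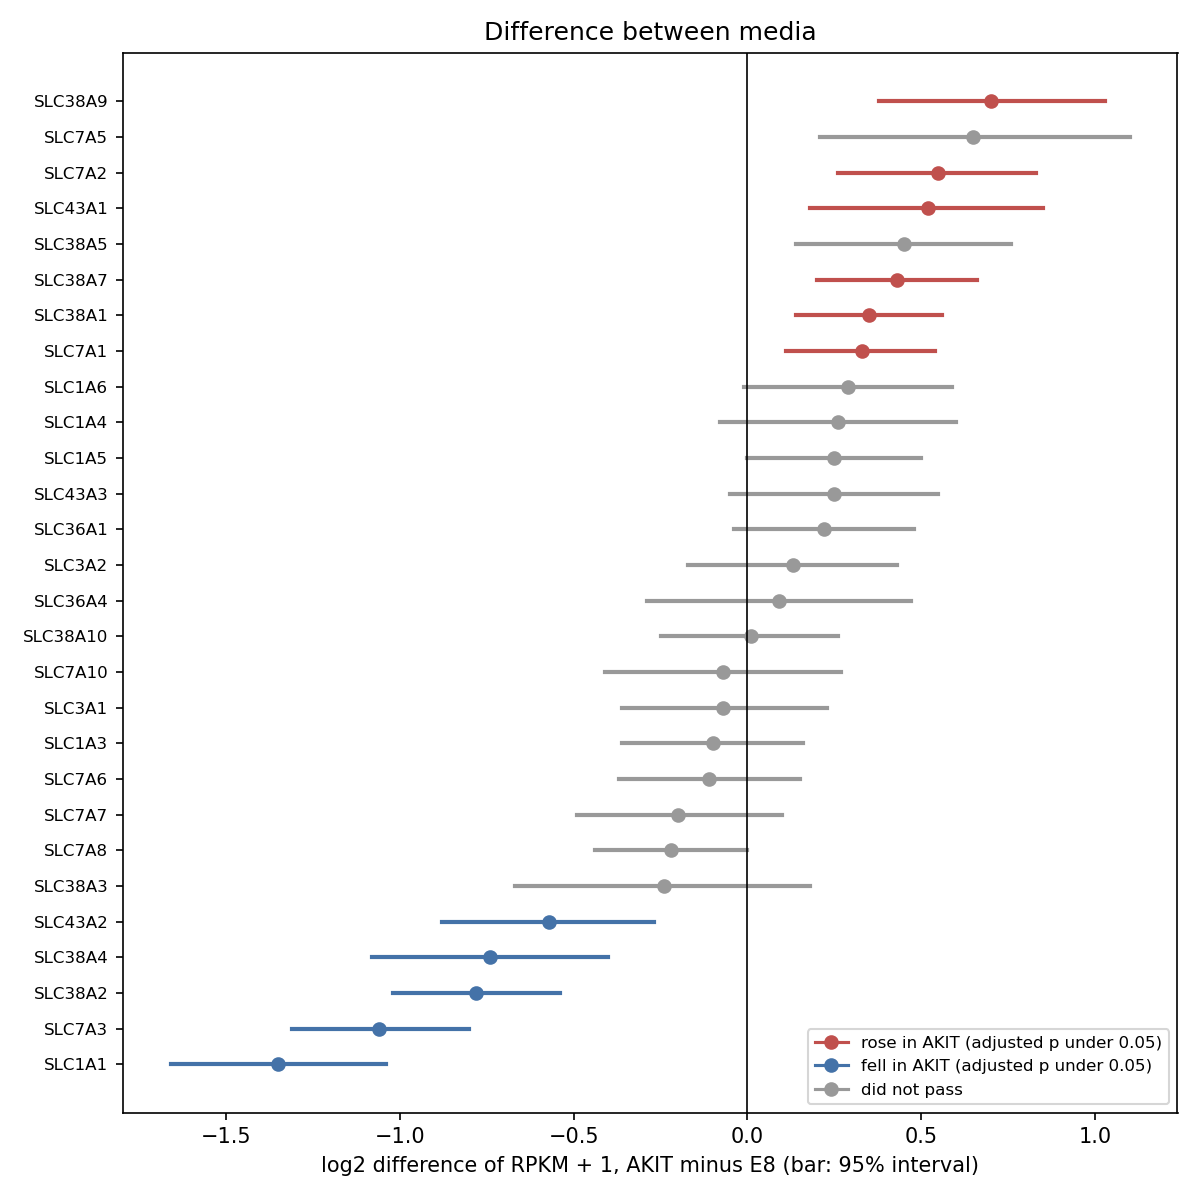
Log2 difference between media (AKIT minus E8) of each tested member with its 95% interval from limma, for 3 AKIT and 2 E8 libraries. The 6 members that rose are red, the 5 that fell blue, and the 17 that did not pass grey; SLC7A5, with a difference of 0.65, has the widest interval.

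SLC7A1, SLC7A2 and SLC7A3 encode the cationic amino acid transporters CAT1, CAT2 and CAT3, which take up arginine, lysine and ornithine without a heavy chain. SLC7A3 had 35.0, 38.6 and 42.5 RPKM in AKIT replicates 1 to 3, against 80.5 and 82.3 RPKM in E8 replicates 1 and 2. Each AKIT library was thus far below both E8 libraries, and SLC7A3 fell (log2 difference -1.06 ± 0.11, 95% interval -1.31 to -0.80, limma adjusted p = 0.00196). SLC7A1 had 58.6, 56.3 and 59.5 RPKM in AKIT and 48.0 and 44.3 RPKM in E8. The AKIT libraries agreed within a few RPKM and lay above E8, and SLC7A1 rose (0.33 ± 0.09, limma adjusted p = 0.0463). SLC7A2 rose as well, with 20.6, 17.9 and 16.7 RPKM in AKIT and 12.9 and 11.6 RPKM in E8 (0.55 ± 0.12, limma adjusted p = 0.0229).

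The order of the leading cationic carriers was turned round between the media. The ratio of SLC7A3 to SLC7A1 within a library was 0.598, 0.686 and 0.715 in AKIT and 1.68 and 1.86 in E8, a ratio that does not depend on the scaling of a library. The 3 cationic carriers together summed to 115 ± 3.11 RPKM in AKIT and 139.8 ± 2.22 RPKM in E8. Without AKIT replicate 1 or 3 the call of SLC7A1 ended (limma adjusted p = 0.0878 and 0.0978), as it did without E8 replicate 1 or 2 (0.219 and 0.361), while SLC7A2 was lost only without E8 replicate 1 or 2 among the libraries left out (0.129 and 0.208). The fall of SLC7A3 had adjusted p-values of 0.00157 to 0.0381 in limma when any library was left out.

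SLC3A2 encodes the heavy chain CD98hc, the partner of several SLC7 light chains, and SLC3A1 encodes the heavy chain rBAT. SLC3A2 had 148, 117 and 130 RPKM in AKIT and 127 and 112 RPKM in E8. The libraries of the media overlapped, and the 95% interval of the difference ran from -0.17 to 0.43 (0.13 ± 0.13, limma adjusted p = 0.489). SLC3A1 was far lower, with 6.58, 6.02 and 7.53 RPKM in AKIT and 6.79 and 7.32 RPKM in E8, and also overlapped (-0.07 ± 0.12, limma adjusted p = 0.737). Its exons share 1923 bases with those of PREPL on the opposite strand in GENCODE 29, and since the use of strand in counting is not given, part of its reads may belong to that gene.

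SLC7A5 encodes LAT1, the exchanger that brings in leucine and other large neutral amino acids and pairs with SLC3A2. It was the highest of the 39 members in each AKIT library, while SLC38A2 was higher in both E8 libraries. SLC7A5 had 352, 240 and 324 RPKM in AKIT and 215.5 and 169 RPKM in E8. AKIT replicate 2 was the lowest of its group and lay nearest to E8, and the groups did not overlap. The difference was 0.65 ± 0.19 (95% interval 0.21 to 1.10, limma adjusted p = 0.0515), just outside the threshold. Without AKIT replicate 2 it passed (limma adjusted p = 0.00588), but 32.2% of all tested genes were then called, against 20.0% with that library. Over the alternatives that kept both E8 libraries its limma adjusted p ran from 0.00588 to 0.131. The table also lists 2 copies, SLC7A5P1 at 2.49 ± 1.22 RPKM in AKIT and 5.04 ± 3.16 in E8 and SLC7A5P2 at 1.48 ± 0.259 and 2.22 ± 0.116, so that some reads of SLC7A5 may have been counted there.

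The ratio of SLC7A5 to its heavy chain SLC3A2 was 2.38, 2.04 and 2.49 in AKIT and 1.70 and 1.51 in E8. SLC7A8 encodes LAT2, a light chain with a wider range of neutral substrates, and stood at 78.3, 73.9 and 82.5 RPKM in AKIT against 91.5 and 91.0 RPKM in E8. These groups did not overlap either, but SLC7A8 did not pass (-0.22 ± 0.09, limma adjusted p = 0.137). The ratio of SLC7A5 to SLC7A8 was 3.24 to 4.50 in AKIT and 1.86 and 2.35 in E8. The exchangers for cationic and neutral amino acids SLC7A6 and SLC7A7 stood at 20.3 ± 1.99 and 1.78 ± 0.130 RPKM in AKIT, against 21.9 ± 0.853 and 2.18 ± 0.0709 RPKM in E8, and neither passed (limma adjusted p = 0.512 and 0.298). SLC7A6 shares 3371 exon bases with SLC7A6OS on the opposite strand, which leaves its level uncertain. SLC7A10, a carrier of small neutral amino acids, was at 1.32 ± 0.237 RPKM in AKIT and 1.42 ± 0.0876 RPKM in E8 (limma adjusted p = 0.767). It shares 204 exon bases with LRP3 on the opposite strand, which leaves its low level uncertain too.

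The SLC38 family holds the sodium-coupled neutral amino acid transporters. Of its 8 tested members 5 were called, or 62.5%, against 20.0% over all tested genes. SLC38A2 encodes SNAT2, a carrier of glutamine, alanine and other small neutral amino acids that is known to be induced when amino acids are scarce. It had 169, 173 and 155 RPKM in AKIT, against 290 and 280 RPKM in E8. All AKIT libraries lay well below E8, and SLC38A2 fell (-0.78 ± 0.10, 95% interval -1.02 to -0.54, limma adjusted p = 0.00388). SLC38A1, which encodes the related glutamine carrier SNAT1, had 136, 132 and 128 RPKM in AKIT and 105 and 101 RPKM in E8. It rose (0.35 ± 0.09, limma adjusted p = 0.0365), and the groups did not overlap. The ratio of SLC38A2 to SLC38A1 was 1.24, 1.32 and 1.21 in AKIT and 2.77 and 2.76 in E8. In both media SLC38A2 thus remained the higher of the pair, with a gap in E8 that no AKIT library reached.

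SLC38A4 encodes SNAT4, a carrier of neutral and cationic amino acids, and had 3.53, 3.14 and 4.19 RPKM in AKIT against 7.24 and 6.17 RPKM in E8. It fell (-0.74 ± 0.14, limma adjusted p = 0.0149). SLC38A1, SLC38A2 and SLC38A4 lie in this order on the long arm of chromosome 12, all on the reverse strand. The bases just before a RefSeq start of each are shown, because these neighbours moved in different directions, read 5′ to 3′ on the strand of the gene in build GRCh38.p14, with matches to the GC box GGGCGG on either strand in capitals. For SLC38A1 the start farther from the gene's end is shown (chr12:46267988-46268137), and the windows of SLC38A2 and SLC38A4 are chr12:46372774-46372923 and chr12:46825998-46826147.
SLC38A1: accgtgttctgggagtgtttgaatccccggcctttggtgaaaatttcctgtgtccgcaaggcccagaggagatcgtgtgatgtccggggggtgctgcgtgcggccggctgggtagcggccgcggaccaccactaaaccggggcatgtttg
SLC38A2: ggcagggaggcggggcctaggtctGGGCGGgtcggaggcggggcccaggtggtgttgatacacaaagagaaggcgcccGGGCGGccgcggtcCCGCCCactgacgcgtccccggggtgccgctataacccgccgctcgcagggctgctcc
SLC38A4: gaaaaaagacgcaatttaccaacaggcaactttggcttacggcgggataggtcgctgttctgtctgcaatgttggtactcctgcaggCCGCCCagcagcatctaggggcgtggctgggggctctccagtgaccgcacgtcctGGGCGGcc
In these 150 bases the box occurs 3 times before SLC38A2, 2 times before SLC38A4 and 0 times before SLC38A1, with G and C making up 74.7%, 60% and 62% of the bases. The other RefSeq start of SLC38A1, not shown, holds 1 box in its 150 bases (chr12:46266517-46266666). Within 250 bases before a start, a longer window than the 150 bases above, 42.6% of all 35116 RefSeq starts hold the box. Of the 53 starts of members, 30 hold it in that longer window, or 56.6%. These matches are a description of the sequence and were tied to no binding data.

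Both SLC38A7 and SLC38A9 encode lysosomal proteins and both rose. SLC38A9, which senses lysosomal arginine for mTORC1 and lets leucine and other amino acids out of the lysosome, had 18.0, 14.5 and 19 RPKM in AKIT and 10.8 and 9.50 RPKM in E8. AKIT replicate 2 was lowest but still above both E8 libraries (0.70 ± 0.14, limma adjusted p = 0.0157). SLC38A7, which exports glutamine and asparagine from lysosomes, had 15.4, 16.5 and 15.4 RPKM in AKIT and 11.1 and 11.8 RPKM in E8 (0.43 ± 0.10, limma adjusted p = 0.0246).

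Of the other tested SLC38 members, SLC38A5, which encodes the glutamine carrier SNAT5, had 6.42, 7.11 and 8.22 RPKM in AKIT and 5.24 and 4.80 RPKM in E8. The groups did not overlap, and its adjusted p lay just outside the threshold (0.45 ± 0.13, limma adjusted p = 0.0518) and inside it without AKIT replicate 2 (0.0456), with 0.0193 to 0.309 over all alternatives. SLC38A10 was at 15.3 ± 1.22 RPKM in AKIT and 15.2 ± 1.01 RPKM in E8, with a 95% interval of -0.25 to 0.26, and SLC38A3 at 0.418 ± 0.249 and 0.663 ± 0.0561 RPKM. Among the called members of the family, only a missing E8 library ended the calls of SLC38A2 (limma adjusted p = 0.0764 without E8 replicate 1 and 0.0636 without E8 replicate 2), SLC38A4 (0.153 and 0.0878) and SLC38A9 (0.0957 and 0.154) when libraries were left out in turn. The call of SLC38A1 ended without AKIT replicate 1 (0.0748), AKIT replicate 3 (0.0593), E8 replicate 1 (0.241) or E8 replicate 2 (0.303), and that of SLC38A7 without AKIT replicate 3 (0.0523), E8 replicate 1 (0.227) or E8 replicate 2 (0.165).

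**Figure D3:**
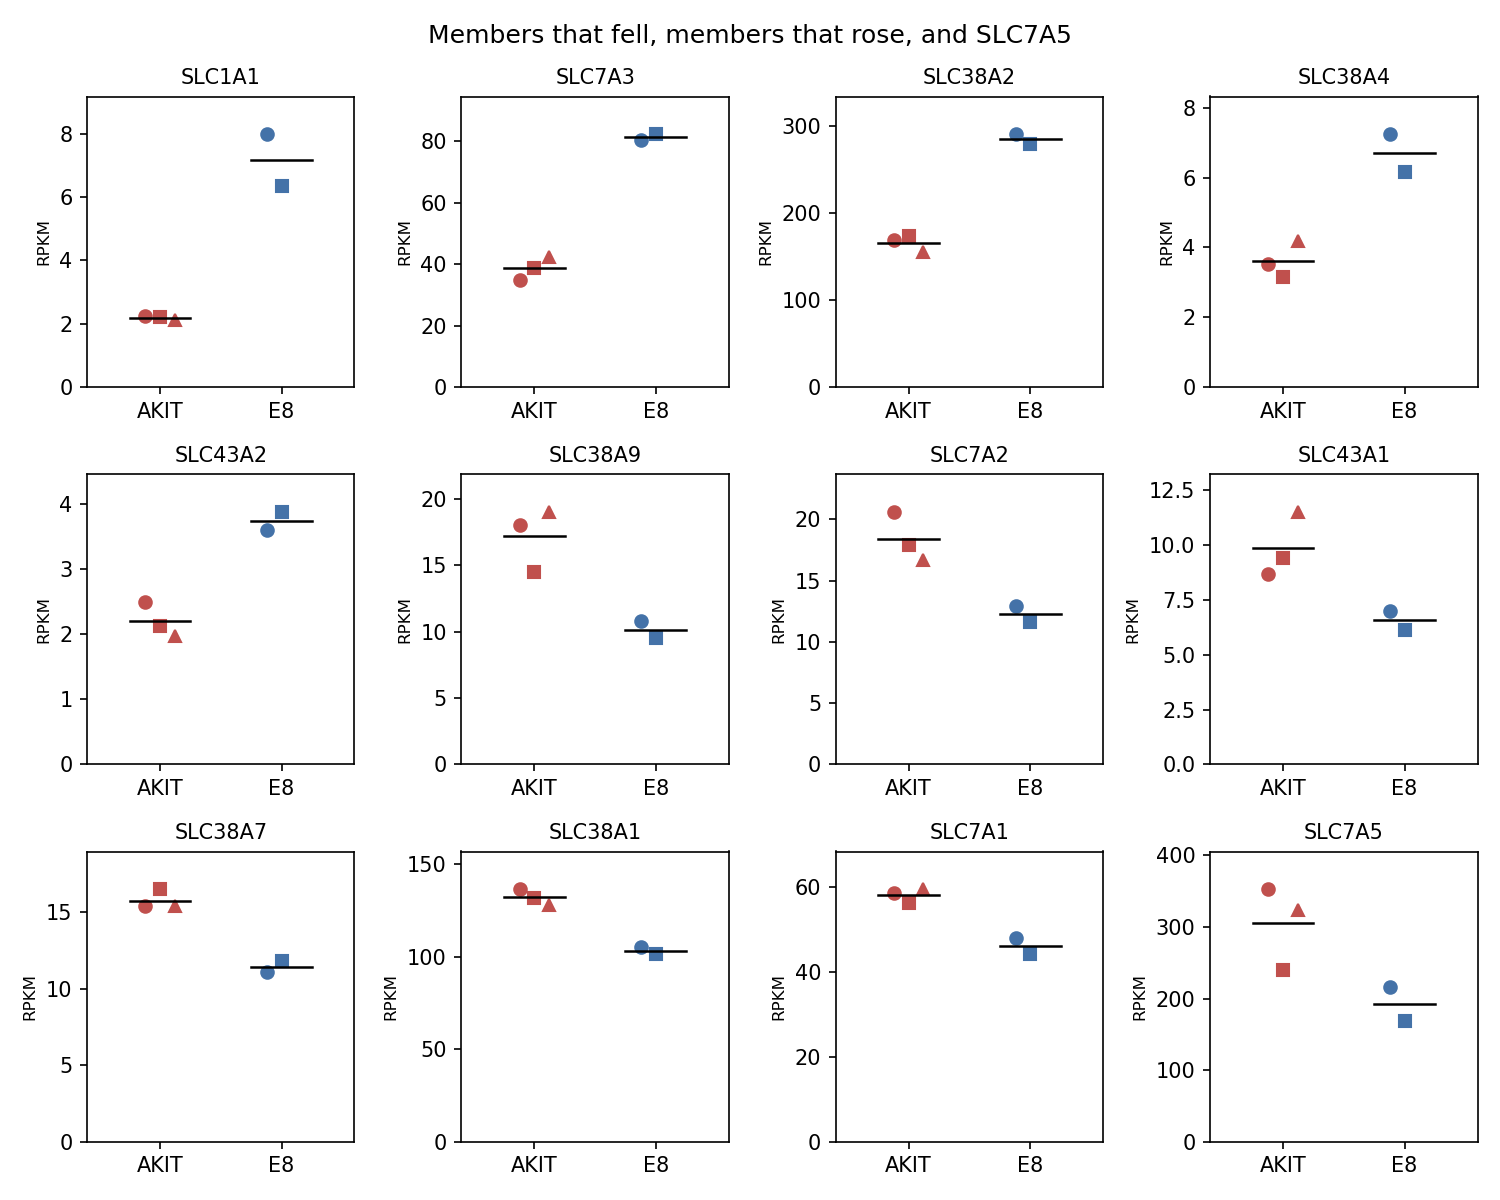
RPKM by library, each panel on its own linear axis from 0, for the 5 members that fell, the 6 that rose and SLC7A5, with AKIT left of E8. Circles, squares and triangles are replicates 1, 2 and 3 and lines are group means; the groups do not overlap in any panel, and AKIT replicate 2 is lowest of the AKIT libraries for SLC38A9 (14.5 RPKM) and SLC7A5 (240 RPKM).

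The SLC1 family holds the glutamate carriers and the neutral exchangers ASCT1 and ASCT2. SLC1A1, which encodes the glutamate, aspartate and cysteine carrier EAAT3, had 2.25, 2.20 and 2.10 RPKM in AKIT against 7.98 and 6.36 RPKM in E8. The AKIT libraries were nearly equal and all far below E8, the largest difference among the tested members (-1.35 ± 0.13, 95% interval -1.66 to -1.04, limma adjusted p = 0.00178), with a ratio of mean RPKM of 0.304. Its adjusted p was 0.0016 to 0.035 in limma with any library left out. SLC1A3, which encodes the glutamate carrier EAAT1, stood at 4.89 ± 0.180 RPKM in AKIT and 5.32 ± 0.252 RPKM in E8 and did not pass (limma adjusted p = 0.545). The ratio of SLC1A1 to SLC1A3 was 0.445 to 0.448 in AKIT and 1.45 and 1.24 in E8, so the leading glutamate carrier by transcript level was SLC1A3 in AKIT and SLC1A1 in E8. SLC1A6, which encodes EAAT4, was at 3.71 ± 0.405 RPKM in AKIT and 2.84 ± 0.172 RPKM in E8 (0.29 ± 0.13, limma adjusted p = 0.152). It shares 87 exon bases with CCDC105 on the opposite strand.

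SLC1A5, which encodes the glutamine exchanger ASCT2, had 191, 170.0 and 189 RPKM in AKIT and 161 and 147 RPKM in E8. It made up 90.1% to 94.0% of the summed RPKM of its family. The groups did not overlap and the difference was 0.25 ± 0.10 (95% interval 0.00 to 0.50, limma adjusted p = 0.134), which passed without AKIT replicate 2 (0.0318). SLC1A4, which encodes the serine and alanine exchanger ASCT1, was at 1.42 ± 0.246 RPKM in AKIT and 1.02 ± 0.106 RPKM in E8 (limma adjusted p = 0.241). Per length, the level of SLC1A5 was 113.3 to 142.1 times that of SLC1A4 in AKIT and 147.5 and 156.5 times in E8.

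SLC43A1 and SLC43A2 encode LAT3 and LAT4, which carry leucine and other neutral amino acids by facilitated diffusion without a heavy chain, and they moved in opposite directions. SLC43A1 had 8.69, 9.42 and 11.5 RPKM in AKIT and 7 and 6.14 RPKM in E8, and rose (0.52 ± 0.14, limma adjusted p = 0.0438). SLC43A2 had 2.49, 2.12 and 1.98 RPKM in AKIT and 3.60 and 3.88 RPKM in E8, and fell (-0.57 ± 0.13, limma adjusted p = 0.0250). The ratio of SLC43A1 to SLC43A2 was 3.48, 4.44 and 5.84 in AKIT and 1.94 and 1.58 in E8. SLC43A3, known as a carrier of purine nucleobases and not of amino acids, was at 8.35 ± 1 RPKM in AKIT and 6.82 ± 0.115 RPKM in E8. It did not pass (0.25 ± 0.13, limma adjusted p = 0.197), and did so without AKIT replicate 2 (0.0434). The call of SLC43A1 ended without AKIT replicate 3 (limma adjusted p = 0.0891), E8 replicate 1 (0.171) or E8 replicate 2 (0.290), and the call of SLC43A2 ended without the same libraries (0.0657, 0.155 and 0.206).

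Of the proton-coupled SLC36 family, SLC36A1, which encodes the lysosomal carrier PAT1, had 14.1, 12.7 and 13.8 RPKM in AKIT and 10.6 and 12.3 RPKM in E8. AKIT libraries lay above E8 by a narrow gap, and the gene did not pass (0.22 ± 0.11, limma adjusted p = 0.192). SLC36A4, which encodes PAT4, was at 6.67 ± 1.28 RPKM in AKIT and 6.15 ± 0.179 RPKM in E8 and overlapped (limma adjusted p = 0.730).

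**Figure D4:**
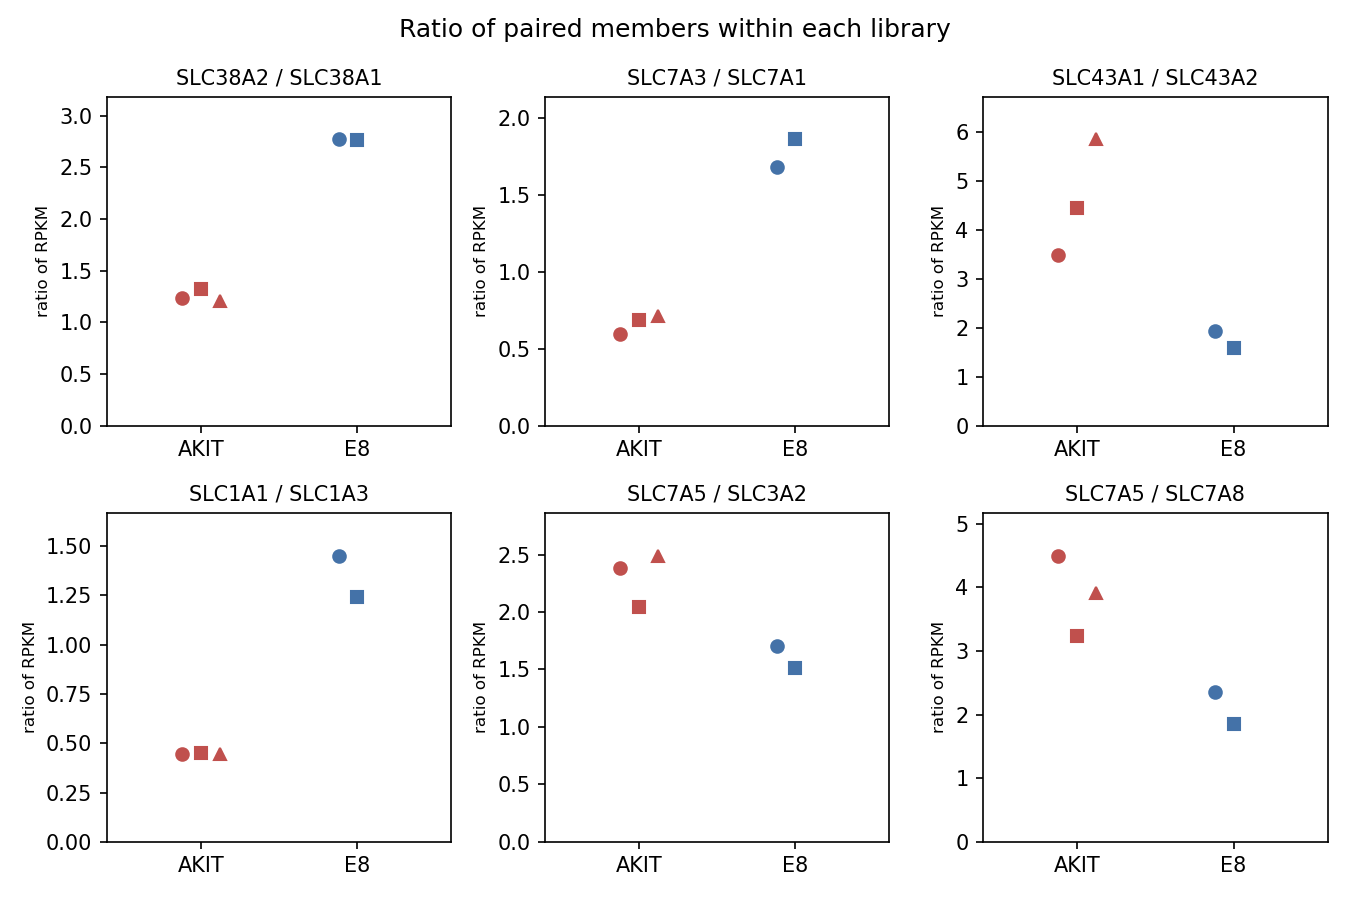
Ratio of the RPKM of paired members within each library, AKIT left of E8, each panel on its own linear axis from 0. Circles, squares and triangles are replicates 1, 2 and 3; the groups do not overlap in any of the 6 panels, with SLC38A2 over SLC38A1 at 1.21 to 1.32 in AKIT and at 2.77 and 2.76 in E8.

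The other 11 members stayed below the filter. SLC7A13 and SLC36A3 had 0 reads in all 5 libraries, where a count of 0 allows up to 3 reads per library (counting error only). SLC36A2, SLC38A8, SLC38A11, SLC7A9 and SLC1A7 had at most 5 recovered reads in any library, and SLC7A4 at most 7. Recovered reads are the lowest that the values allow, so true counts may be higher. SLC38A6, which shares 245 exon bases with TRMT5 on the opposite strand, had 0.531 ± 0.217 RPKM in AKIT and 0.442 ± 0.0477 in E8. Its mean of 0.496 RPKM was the nearest below the filter, while SLC38A3, at 0.516, was the nearest above it. The glutamate carrier SLC1A2, which encodes EAAT2, had 168, 169 and 110 reads in AKIT and 36 and 34 in E8, or 0.540 ± 0.0731 RPKM and 0.166 ± 0.0031 RPKM. SLC7A14, an SLC7 member of the cationic subfamily by sequence, had 20, 25 and 30 reads in AKIT and 54 and 61 reads in E8. When genes of any level were tested, both passed in limma, SLC1A2 higher (adjusted p = 0.0219) and SLC7A14 lower (adjusted p = 0.0378) in AKIT, where 12.5% of all genes were called.

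Summed over all 39 members the level was 1255 ± 85.7 RPKM in AKIT and 1220 ± 67.9 RPKM in E8, with overlapping libraries. The shares of the families within this sum differed more. The SLC38 family made up 27.3%, 31.3% and 27.1% of it in AKIT, against 35.2% and 36.6% in E8, a difference of -7.33 percent points between the means. The SLC7 family made up 42.6%, 38.9% and 43.0% in AKIT and 37.4% and 36.3% in E8, or 4.68 percent points more, and SLC1 15.6% ± 0.276 and 14.0% ± 0.141. SLC3 made up 11.0% ± 0.530 in AKIT and 10.4% ± 0.244 in E8. The SLC36 and SLC43 families each held under 2% in every library. SLC7A5, SLC38A2, SLC1A5, SLC3A2 and SLC38A1 together held 71.6% to 74.8% of the sum in AKIT and 70.9% and 69.1% in E8. Single high members weighed on these shares. Means of SLC38A2 were 166 RPKM in AKIT and 285 in E8, where its family summed to 358 and 438. For SLC7A5 the means were 305 and 192 RPKM, where its family summed to 522 and 450. Within SLC38, 3 tested members rose and 2 fell. The shares were not tested. AKIT replicate 2 was nearest to E8 in the shares of SLC7 and SLC38.

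**Figure D5:**
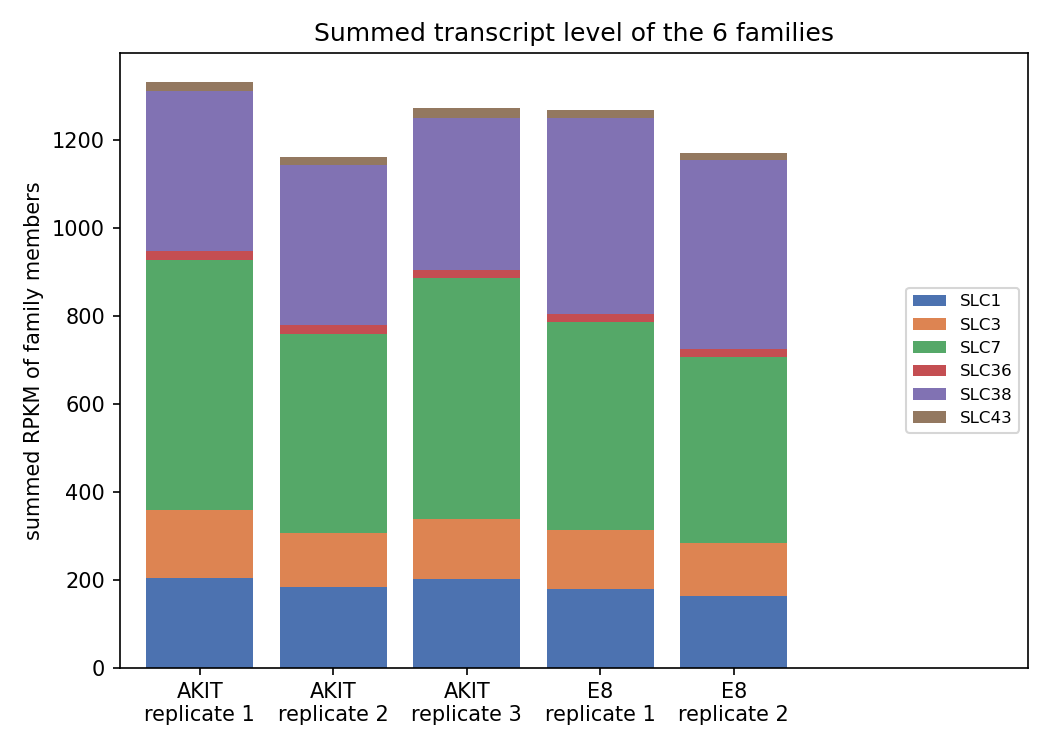
Summed RPKM of the members of each of the 6 families, stacked in every library, with AKIT left of E8. Total height is 1162 to 1331 RPKM in AKIT and 1172 and 1268 RPKM in E8. The SLC38 segment is shorter in every AKIT library than in E8. The SLC7 segment is taller than in E8 for AKIT replicates 1 and 3 (567.6 and 547 RPKM). For AKIT replicate 2 it lies between the E8 libraries (452.7 RPKM, against 474.2 and 425).

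Upstream sequence was read for the 31 members that RefSeq promoter windows of build GRCh38.p14 list, with 53 starts in all. The other 8 members, among them the called SLC7A2 and SLC7A3, had no entry and were not searched. Within 250 bases before a start, the E-box CACGTG, the motif bound by MYC and TFE family proteins, was found at 8 starts of 8 members, or 15.1% of the members' starts against 6.34% of all 35116 starts. Members with the box were SLC1A5, SLC1A7, SLC7A5, SLC7A7, SLC7A8, SLC36A1, SLC38A5 and SLC43A1, of which SLC43A1 was called. SLC36A1 holds a further box nearer its start, outside the window shown. The windows of 5 of them are shown because SLC43A1 rose and SLC1A5, SLC7A5, SLC38A5 and SLC36A1 stood above E8 in every AKIT library without passing. The other tested members with the box, SLC7A7 and SLC7A8, stood below E8 in every AKIT library, also without passing, and SLC1A7 was below the filter. Capitals mark the box, and the sequences run 5′ to 3′ on the strand of the gene, which is reverse for SLC1A5 (chr19:46787311-46787370), SLC7A5 (chr16:87869605-87869664), SLC38A5 (chrX:48470434-48470493) and SLC43A1 (chr11:57515782-57515841) and forward for SLC36A1 (chr5:151447533-151447592).
SLC1A5: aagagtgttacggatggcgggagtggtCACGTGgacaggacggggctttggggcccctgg
SLC7A5: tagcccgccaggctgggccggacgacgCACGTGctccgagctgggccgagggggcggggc
SLC38A5: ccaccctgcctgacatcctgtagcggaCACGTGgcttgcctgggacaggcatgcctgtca
SLC43A1: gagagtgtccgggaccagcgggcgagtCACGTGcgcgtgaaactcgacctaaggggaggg
SLC36A1: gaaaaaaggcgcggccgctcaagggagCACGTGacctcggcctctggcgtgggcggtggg
The core TGATGNAA of the amino acid response element, the site of ATF4 and its partners, was found at 2 starts, of SLC1A3 and SLC1A5, or 3.77% against 3.14% of all starts. The TCF/LEF core CTTTGAT was found at 0 of the 53 starts, against 2.26% of all. All motifs were searched on both strands, and in the members' windows no match of a motif overlapped a match of another. A start without a match says only that these letters are not in the window.

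Of 27 tested genes of the GCN2 and ATF4 response to amino acid shortage, 4 fell and 0 rose, with a median of -0.15 over the list. The 14.8% called lay below the 20.0% over all tested genes, of which 11.7% were lower. ASNS, the asparagine synthetase, stood at 17.7 ± 3.75 RPKM in AKIT and 40.2 ± 1.48 RPKM in E8 (-1.16 ± 0.18, limma adjusted p = 0.00661). CHAC1, which degrades glutathione, stood at 28.1 ± 3.53 and 49.4 ± 5.72 RPKM (-0.80 ± 0.13) and TRIB3, a pseudokinase, at 8.14 ± 2.07 and 14.1 ± 0.923 RPKM (-0.75 ± 0.20). ATF4 itself was at 197 ± 13.0 RPKM in AKIT and 240 ± 13.3 RPKM in E8 and did not pass (limma adjusted p = 0.103). Without AKIT replicate 2, 8 genes of this list were called, where 32.2% of all tested genes were called.

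Of 34 tested genes of amino acid metabolism, 8 rose and 5 fell (median 0.07), or 38.2% called against 20.0% over all tested genes. ASNS, described above, stood in both lists and was among the 5 that fell. GLUL, the glutamine synthetase, fell to 49.5 ± 2.69 RPKM in AKIT, against 94.2 ± 2.54 RPKM in E8 (-0.91 ± 0.09, limma adjusted p = 0.00196), and BCKDHA, a subunit of the branched-chain ketoacid dehydrogenase, fell to 9.79 ± 1.81 RPKM, against 17.6 ± 0.0301 RPKM in E8. ODC1, which makes putrescine from ornithine, stood at 20 ± 2.45 RPKM in AKIT and 9.76 ± 0.375 RPKM in E8 (0.96 ± 0.12). The proline dehydrogenase PRODH and the ornithine aminotransferase OAT also rose (0.83 ± 0.13 and 0.59 ± 0.10). Without AKIT replicate 1 or 3, 7 genes of this list were called, where 13.9% and 12.2% of all tested genes were called.

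Of 35 tested genes of amino acid sensing by mTORC1, 2 rose and 1 fell (median 0.03), or 8.57% called, below the 20.0% over all tested genes. RRAGD and RRAGC, a pair of closely related Rag GTPases that bring mTORC1 to the lysosome, rose (0.66 ± 0.15 and 0.66 ± 0.14). WDR24, a subunit of the GATOR2 complex, fell (-0.41 ± 0.12, limma adjusted p = 0.0474). Among other alternatives, the call of WDR24 ended without a trend, without a filter and with quantile normalization. RRAGD had 9.99, 7.35 and 9.84 RPKM in AKIT and 5.25 and 5.35 RPKM in E8, and RRAGC had 17.9, 18.5 and 15.3 RPKM in AKIT and 11.9 and 9.24 RPKM in E8. Of 11 tested mitochondrial amino acid carriers, SLC25A44 rose (0.34 ± 0.10, limma adjusted p = 0.0498) and SFXN3 fell (-0.60 ± 0.14), or 18.2% called, with a median of 0.03. The call of SLC25A44 ended in most alternatives, among them pseudocounts of 0.1 and 0.5. That of SFXN3 ended with quantile normalization and the replicate block, among others. Of 9 tested amino acid carriers of other families, the neutral carrier SLC6A15 fell (-0.67 ± 0.13, limma adjusted p = 0.0144) and 0 rose, or 11.1% called, with a median of 0.06. Over all tested genes 13.9%, 32.2% and 12.2% were called without AKIT replicate 1, 2 or 3. The numbers called in these lists without the same libraries were 0, 7 and 1 for the sensing list. For the mitochondrial carriers they were 0, 6 and 0, and for the other carriers 1, 4 and 1. With either E8 library left out they were 0 for each of these lists.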

How the data were processed

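The authors deposited 1 table of RPKM values by gene symbol for 5 libraries, and columns were assigned to samples by title. Libraries were made from column-purified total RNA by Illumina protocols, per the labels' protocols, and the submitters' processing notes name hg19 and GRCh37. The sources used here give no aligner, counter, annotation or strand setting. Reads and library totals were recovered from the steps of the deposited RPKM values. At a tolerance of 0.02 reads, whole reads came out for all 19892 genes above 0, summing to 99.0% of the library totals. The smallest gene length that gave whole reads was used, so the reads of a gene are the lowest that its values allow. For genes above 0 in few libraries, some length nearly always fits. Chi-square per gene (at least 10 reads in a pair) was 3.31 between the E8 libraries and 16.6 to 31.7 between AKIT libraries. Each library was counted as 1 replicate, though these values cannot tell separate cultures from repeats of the same culture. The E8 libraries were closer to each other than any AKIT pair.

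On log2(RPKM + 1), a trended limma fit (version 3.58.1, R 4.3.3) was run with filter 0.5 RPKM, two-sided, Benjamini-Hochberg adjusted over 14776 genes, without covariates. The planned comparison of 3 with 3 samples was run as 3 with 2. Members, lists and motifs were chosen with earlier results of these data known. Values in every sample are given for called members, the highest member of each family and the SLC3 heavy chains, and from each related list up to 3 called genes per direction were named; other members and single genes named beside them were chosen after their values were seen. Promoter windows are RefSeq's (GRCh38.p14), and shared exons come from GENCODE 29. Alternatives were other pseudocounts, filters, scalings and weights, no trend, a replicate block, voom on the recovered reads, and each library left out.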

Additional observations from a re-analysis of the deposited data

How the results depend on the processing

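The 28 tested members were refitted under 15 alternatives, except where a member fell below the filter: SLC1A4, SLC7A7, SLC7A10 and SLC38A3 at 2 RPKM, and SLC38A3 also without AKIT replicate 2, E8 replicate 1 or E8 replicate 2. Directions reversed only for members with differences near 0: SLC7A10 (0.07 with quantile normalization, 0.01 with the replicate block and 0.01 without AKIT replicate 3), SLC36A4 (-0.00 without AKIT replicate 2) and SLC38A10 (-0.02 with array weights, -0.05 without AKIT replicate 2 and -0.06 without E8 replicate 2). With a library left out, SLC7A10 ran from -0.13 to 0.01 and SLC36A4 from -0.00 to 0.23. The numbers in AKIT against E8 were 1214 genes higher and 1736 lower; with array weights they were 2269 and 2740, and with the replicate block 492 and 824. With the replicate block 2 members were higher, with SLC7A1, SLC38A1, SLC38A7, SLC43A1 and SLC43A2 no longer called. Deviations from the group means correlated at -0.001 and 0.025 between same-numbered libraries. With 2 E8 libraries, whose deviations mirror each other and are small, these correlations cannot show whether the numbers pair the samples. Leaving out 1 library gave 142 to 2132 genes higher and 250 to 2619 lower, and 0 to 10 members higher and 2 to 5 lower. With 1 E8 library its spread is taken from the AKIT libraries. SLC7A5 and SLC38A5 were called higher with array weights, quantile or median-of-ratios scaling and a filter of 2 RPKM, SLC7A5 also with voom, and SLC1A5 with array weights. Without a trend the calls of SLC7A1 and SLC38A1 ended, and without a filter that of SLC43A1.

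Of the related lists, other amino acid carriers had 1 call, 2 without a trend or with voom, 3 with array weights and 0 to 4 with a library left out. Mitochondrial carriers had 2 calls, 1 with pseudocounts of 0.1 or 0.5, without a filter or without a trend, 0 with a filter of 2 RPKM, quantile normalization or the replicate block, 6 with array weights and 0 to 6 with a library left out. The mTORC1 sensing list had 3, 7 with array weights, 1 with the replicate block and 0 to 7 with a library left out. The GCN2 and ATF4 list had 4, 9 with array weights and 0 to 8 with a library left out. The metabolism list had 13, 5 with the replicate block and 1 to 16 with a library left out. The share called over all tested genes moved as well. It was 20.0%, against 33.9% with array weights, 8.91% with the replicate block and 32.2% without AKIT replicate 2. The cause of these changes was not tested.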

Other observations

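SLC7A11, the cystine and glutamate exchanger that pairs with SLC3A2 and lies outside the rule, had 21.4, 18.2 and 21.3 RPKM in AKIT and 17.8 and 15 RPKM in E8, without overlap and without passing (log2 difference 0.29 ± 0.12, limma adjusted p = 0.134). Chosen after their values were seen, the genes that supply or use glutamine did not move alike: the synthetase GLUL and the carrier SLC38A2 fell, the carrier SLC38A1 rose, and the exchanger SLC1A5 did not pass.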
